A study of Glycine max with 22 samples.

Results

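The MYB transcription factors that the array names were followed in mature leaves of soybean (Glycine max) whose growing shoot tips had been taken away and then allowed to return. A probe set belonged to the family when the probe annotation gave it a single gene symbol made of MYB and a number, in either case, which held for 102 of the 37593 soybean probe sets. These 102 probe sets stand for 65 of the 6029 soybean genes named in this way, of which 25 have several probe sets and 40 have 1. A further 15 probe sets that carry a MYB symbol among several symbols were left out. A member was tested when its signal exceeded a floor on 3 or more arrays, which 79 probe sets of 55 genes did, and 41 of these exceeded it on all 22 arrays. The floor of an array is the 95th percentile of its probe sets for 2 organisms that soybean leaf does not contain, an oomycete and a nematode. The 23 untested members include every probe set of MYB14, MYB82, MYB84, MYB98, MYB99, MYB101, MYB150, MYB172, MYB181 and MYB185, and 12 of the 23 were above the floor on no array. Probe sets whose names end in _s_at or _x_at, 23 of the 102, hold probes that also match related transcripts, so their signal can belong to more than 1 MYB gene.

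MYB proteins bind DNA through 1 or more copies of a helix-turn-helix repeat, and in plants they form one of the largest families of transcription factors. Some members steer the phenylpropanoid pathway, which makes flavonoids, isoflavonoids and lignin. Others act in cell identity, in drought and salt responses, or in the circadian clock. In soybean, MYB176 activates a chalcone synthase gene and with it isoflavonoid synthesis. MYB29 and MYB133 are also tied to isoflavonoid content, while MYB76, MYB92, MYB177, MYB84 and MYB118 are known for stress tolerance, mostly from expression in transgenic plants. Roles are stated below only for members where one is well established.

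Leaves of plants kept free of all axillary and terminal buds for 15 days form D15 (plant age 45 days, n = 3). R20 (age 50 days, n = 3) and R30 (age 60 days, n = 3) come from such plants after 5 and 15 days of regrowth. Untreated plants of the same ages gave C15, C20 and C30 (n = 3 each), and C0 (age 30 days, n = 4) marks the start. All plants grew in chambers with 16 h days; the labels do not say how many plants made up a sample, and no genotype or cultivar is given. Each comparison sets treated against untreated leaves of 1 age, or the oldest against the youngest untreated leaves.

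Signal is on the linear scale of the deposited table, and fold changes are on the log2(signal + 1) scale with their standard error. A member is called when its p-value from limma, adjusted by the Benjamini-Hochberg method over all 32776 tested soybean probe sets, is under 0.05. The level of one probe set says nothing about the level of another, because probes differ in brightness.

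The floor lay between 11.8 and 22.1 on the 22 arrays, and between 62 and 74 members were above it on 21 of them. R20 replicate 3 stood apart, with 59 members above the floor, a median soybean signal of 38.2 against 57.1 to 81.3 on the other arrays, and a 3′ to 5′ ratio of 136 on 1 actin control against 2.29 to 8.37 elsewhere. A second actin control gave 8.28 on that array, within the range of 5.32 to 56.1 over all arrays. Spiked-in controls (BioC over BioB) gave 2.45 to 2.90 on the 6 arrays of R20 and C20 and 0.952 to 1.20 on the other 16. The 16 probe sets of leaf marker genes, among them CAB3, RCA14 and PSAD, summed to 54913 to 62436 in R20 and 18824 to 33308 in C20, with 50464 to 64447 in D15 and 41913 to 76805 in C15. In R30 they summed to 50552 to 62951, and in C30 to 29567 to 55993. Seed storage genes stayed at the floor, except GY7 on 1 array. Of the 4 nodule and root probe sets, NOD33 was above the floor on 20 arrays, ENOD40B on 16, ENOD55-2 on 3 and ENOD93 on none. NOD33 had a median of 192 over the arrays and reached 2309 on C30 replicate 1. A probe set of histone H4, a gene of dividing cells, gave 6059 to 8575 in D15 and 782 to 5401 in C15, 4678 to 7455 in R20 and 1063 to 2689 in C20, and 5291 to 5792 in R30 and 195 to 4860 in C30. At all 3 ages its treated arrays were above every untreated one. The part of these differences in the MYB results was not tested, and in whole leaves fewer cells of a type and less RNA per cell cannot be told apart.

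After 5 days of regrowth 14 MYB probe sets of 10 genes differed from untreated leaves. Signals for MYB48, MYB52, MYB57, MYB85, MYB93, MYB133 and MYB149 were lower in R20 than in C20, and signals for MYB92, MYB121 and MYB143 were higher. The called log2 fold changes ran from -3.02 to -1.14 among the lower members and from 1.68 to 3.27 among the higher ones. The 14 called members are 17.7% of the 79 tested, against 17.8% of all tested soybean probe sets, so the family was called about as often as the background. At an unadjusted p under 0.05 there were 22 members (27.8%), against 34.3% of all. By direction, 4 members were higher (6.64% of all probe sets) and 10 were lower (11.2%). The R20 and C20 arrays did not overlap for 17 members that were lower (26.4% of all probe sets were so) and for 12 that were higher (15.5%). The median log2 fold change was -0.02 over the tested members and -0.27 over all tested probe sets. How many fell depends on how arrays are put on 1 scale: the median of all probe sets was -0.09 after quantile normalization and 0.19 after median centring, with members' medians of 0.19 and 0.44, and the 14 members called under each split into 6 higher and 8 lower, or 7 and 7. Without R20 replicate 3, 11 members were called, 4 higher and 7 lower, and 10 of them were among the 14, while 9.2% of all tested probe sets were called.

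**Figure D1:**
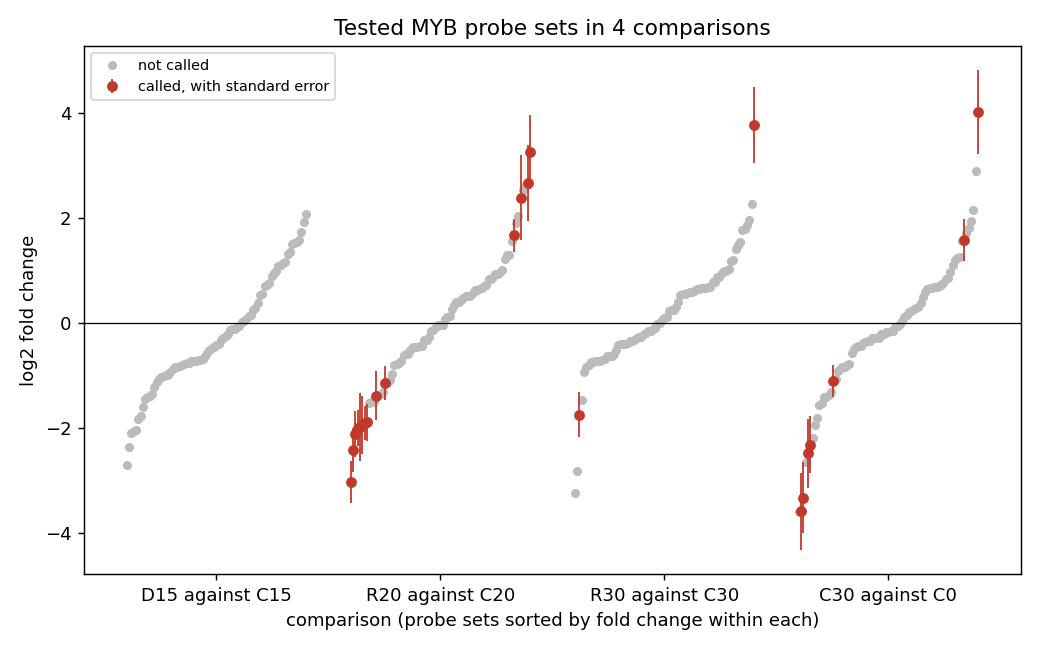
Log2 fold change of the 79 tested MYB probe sets in 4 comparisons, sorted within each, with called members in red and their standard errors as bars. The comparison of R20 with C20 holds 14 called members, D15 with C15 none, R30 with C30 2 and C30 with C0 7.

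MYB48 fell on both of its probe sets. Gma.4207.1.S1_at gave 384, 325 and 401 on the R20 arrays, against 1499, 1934 and 1092 on the C20 arrays. Every R20 value lay under every C20 value, by 1.99 ± 0.35 on the log2 scale (adjusted p = 0.00169, limma). The other probe set of MYB48, Gma.4207.3.S1_a_at, gave 189, 174 and 65.3 in R20, against 989, 1466 and 804 in C20. Its log2 fold change was -3.02 ± 0.40 (adjusted p = 0.000236), and -2.53 without R20 replicate 3, the lowest array. At 45 days MYB48 was also lower on every bud-removal array: Gma.4207.1.S1_at gave 772, 787 and 779 in D15, against 1479, 1397 and 1753 in C15. That difference, -0.98 ± 0.35, was not called (adjusted p = 0.243).

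MYB52 (Gma.750.1.A1_s_at) was the member called lower in both regrowth comparisons. It gave 75.3, 42.7 and 105 in R20, against 474, 452 and 245 in C20. All R20 values were lower, and the log2 fold change was -2.41 ± 0.43 (adjusted p = 0.00197, limma). In R30 it gave 175, 176 and 206, against 986, 580 and 412 in C30. The groups were again apart, with a log2 fold change of -1.74 ± 0.43 (adjusted p = 0.0373). That call was lost under 7 of 15 alternatives, among them leaving out any 1 of the 6 arrays other than C30 replicate 3, with adjusted p up to 0.167 and log2 fold changes of -2.03 to -1.40. The R20 call was kept under all 15. In D15 it gave 156, 83.1 and 131, against 198, 465 and 330 in C15. Here too no values overlapped, but the log2 fold change of -1.38 ± 0.43 was not called (adjusted p = 0.174).

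MYB93 (Gma.10456.1.S1_x_at) gave 244, 229 and 264 in R20, against 1080, 1040 and 671 in C20. Its values were narrow in R20 and all lower than in C20, with a log2 fold change of -1.89 ± 0.32 (adjusted p = 0.00153, limma). In D15 it gave 319, 245 and 351, against 585, 1010 and 928 in C15. That difference of -1.44 ± 0.32 missed the threshold (adjusted p = 0.0693). In R30 it gave 405, 484 and 731, against 790, 1078 and 773 in C30. The R30 values were lower but nearer to the untreated ones, at -0.73 ± 0.32 (adjusted p = 0.3).

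MYB133, one of the members tied to isoflavonoid content, fell in R20 on 2 of its 3 tested probe sets. GmaAffx.91390.1.S1_s_at gave 99.0, 75.9 and 40.4 in R20, against 249, 344 and 186 in C20, a log2 fold change of -1.89 ± 0.36 (adjusted p = 0.00287, limma). GmaAffx.85162.1.S1_at gave 43.8, 45.8 and 15.2 in R20, the last of them not above the floor, against 132, 186 and 108 in C20. Its groups did not overlap either, with a log2 fold change of -2.11 ± 0.44 (adjusted p = 0.00516), and -1.61 without R20 replicate 3. The third probe set of MYB133, Gma.13966.1.S1_at, gave 151, 150 and 323 in R20, against 377, 532 and 185 in C20. Its groups overlapped and it was not called (log2 fold change -0.78 ± 0.55, adjusted p = 0.328). Over the 22 arrays it correlated with the other MYB133 probe sets at r = 0.417 and 0.602, while those correlated with each other at r = 0.900.

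MYB57, MYB85 and MYB149 were called lower in R20 with adjusted p between 0.0228 and 0.0474, and all 3 lost the call without R20 replicate 3. MYB85 (GmaAffx.84304.1.S1_at) gave 39.3, 33.0 and 3.86 in R20, against 65.7, 80.4 and 68.3 in C20, a log2 fold change of -1.94 ± 0.55 (adjusted p = 0.0228, limma). MYB149 (GmaAffx.40917.1.S1_at) gave 312, 371 and 139 in R20, against 426, 589 and 687 in C20, a log2 fold change of -1.14 ± 0.33 (adjusted p = 0.0257). In both genes the third R20 array was the lowest, and the other two R20 arrays were also below every C20 array. MYB57 was called on 2 of its 3 tested probe sets. GmaAffx.91778.1.S1_s_at gave 63.9, 77.2 and 6.08 in R20, against 131, 133 and 121 in C20 (log2 fold change -1.97 ± 0.65, adjusted p = 0.0427). GmaAffx.40316.1.S1_at gave 49.7, 58.6 and 12.5 in R20, against 84.6, 97.5 and 84.2 in C20 (log2 fold change -1.38 ± 0.47, adjusted p = 0.0474). The third R20 array was not above the floor for MYB85 or for either of these MYB57 probe sets. Without it the log2 fold changes were -0.96 for MYB85, -0.71 for MYB149, and -0.86 and -0.70 for the MYB57 probe sets in that order, with adjusted p of 0.0786 to 0.238. The remaining MYB57 probe set, Gma.11276.1.S1_at, was above the floor on all 22 arrays and was not called. It gave 167, 200 and 146 in R20, against 303, 312 and 270 in C20, without overlap. In D15 it gave 98.1, 79.5 and 129, against 134, 176 and 297 in C15, also without overlap.

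Among the members that rose, MYB92 and MYB121 had the largest fold changes in R20. MYB92, which raises stress tolerance when expressed in Arabidopsis, gave 539, 725 and 646 on Gma.11345.1.S1_at in R20, against 143, 38.5 and 48.3 in C20. The R20 values were close together and far above those of C20, with a log2 fold change of 3.27 ± 0.70 (adjusted p = 0.0059, limma). The same probe set gave 235, 206 and 395 in D15, against 59.2, 114 and 35.0 in C15, and 297, 362 and 396 in R30, against 150, 124 and 19.0 in C30. Treated values were higher than untreated ones at all 3 ages, but the log2 fold changes of 2.09 ± 0.70 in D15 (adjusted p = 0.214) and 2.28 ± 0.70 in R30 (adjusted p = 0.110) were not called. Without C30 replicate 1 the R30 value was 2.81 and was called (adjusted p = 0.0464).

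A second MYB92 probe set, GmaAffx.89269.1.A1_s_at, gave 516, 744 and 115 in R20, against 147, 47.2 and 42.1 in C20. The groups overlapped through R20 replicate 3, and the log2 fold change was 2.39 ± 0.81 (adjusted p = 0.0465, limma), or 3.20 without that array (adjusted p = 0.0226). The remaining probe set, GmaAffx.92212.1.A1_s_at, gave 30.4, 56.0 and 14.6 in R20, against 22.4, 23.5 and 15.6 in C20. It overlapped and was not called (0.52 ± 0.57, adjusted p = 0.552). The probe sets of MYB92 tracked each other over the 22 arrays at r between 0.742 and 0.910.

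MYB121 (GmaAffx.52050.1.S1_at) was the member called higher in both regrowth comparisons. It gave 1174, 1340 and 730 in R20, against 78.4, 154 and 354 in C20, a log2 fold change of 2.68 ± 0.72 (adjusted p = 0.0184, limma). It gave 628, 772 and 409 in R30, against 12.9, 54.6 and 99.5 in C30, a log2 fold change of 3.77 ± 0.72 (adjusted p = 0.00742). In neither comparison did the groups overlap. In D15 it gave 329, 506 and 232, against 391, 44.9 and 290 in C15, which overlapped (0.97 ± 0.72, adjusted p = 0.643). The call in R20 was lost without C20 replicate 1 or without C20 replicate 2, and the call in R30 without R30 replicate 2, with log2 fold changes of at least 2.16 in R20 and 2.97 in R30 under all alternatives tried.

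MYB143 (Gma.4660.1.S1_at) gave 212, 220 and 374 in R20, against 96.9, 50.9 and 106 in C20, a log2 fold change of 1.68 ± 0.32 (adjusted p = 0.00328, limma). In R30 it gave 194, 215 and 176, against 77.6, 83.7 and 93.1 in C30. The spread was small in both groups and the values did not overlap, but the log2 fold change of 1.19 ± 0.32 fell just short of a call (adjusted p = 0.0612). In D15 it gave 184, 168 and 232, against 124, 95.2 and 91.9 in C15, again apart and not called (0.90 ± 0.32, adjusted p = 0.251).

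**Figure D2:**
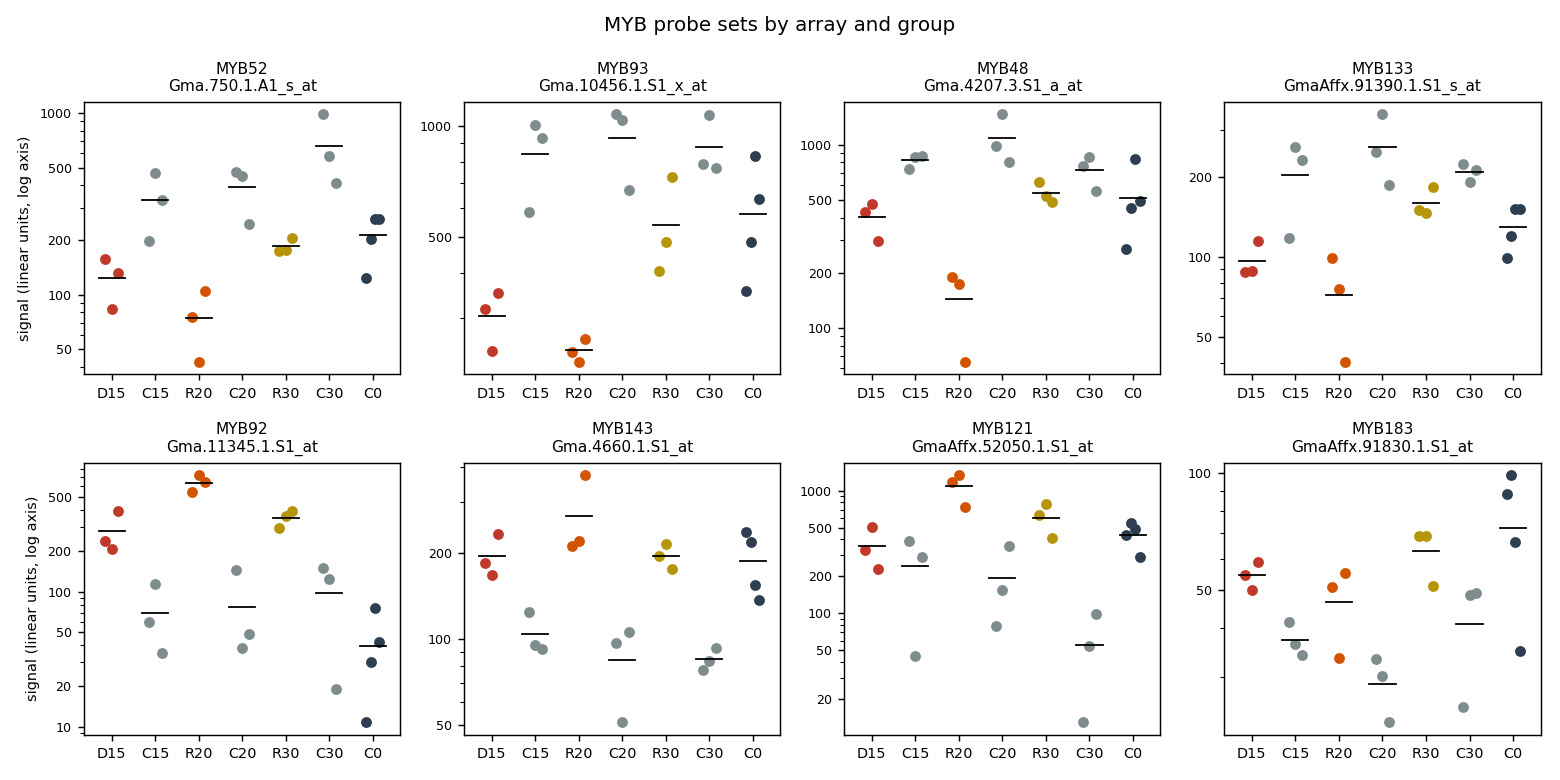
Signal of 8 MYB probe sets on every array (points, log axis) with the group mean (line), treated groups left of the untreated group of the same age and C0 last. MYB52, MYB93 and MYB133 were lower and MYB92, MYB143 and MYB183 higher on every treated array than on every untreated array of the same age.

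Between 50-day groups, MYB142 (GmaAffx.32120.1.S1_at) and MYB73 (GmaAffx.92383.1.S1_at) also had large fold changes without a call. MYB142 gave 45.6, 43.3 and 50.7 in R20, against 23.6, 2.47 and 4.46 in C20, where 1 of 3 arrays was above the floor (log2 fold change 2.61 ± 1.14, adjusted p = 0.111, limma). MYB73, a gene tied to seed lipid content, gave 476, 300 and 384 in R20, against 116, 43.1 and 53.0 in C20 (2.55 ± 1.13, adjusted p = 0.119). Neither pair of groups overlapped. Both probe sets varied widely among arrays of other groups, which enters their standard errors.

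At 60 days, after 15 days of regrowth, MYB121 was higher and MYB52 lower, with the values given above, and no other member was called. These 2 calls are 2.53% of the tested members, against 2.22% of all tested probe sets (1.82% higher and 0.403% lower). The median log2 fold change was 0.11 over the members and 0.05 over all tested probe sets. The treated and untreated arrays were apart for 15 members that were higher (13.1% of all probe sets were so) and for 8 that were lower (9.02%). MYB68 (GmaAffx.60367.1.S1_at), tied to salt and alkali tolerance, had the largest fall. It gave 15.5, 24.4 and 17.3 in R30, where 1 of 3 arrays was above the floor, against 625, 137 and 73.8 in C30. The groups were far apart, but C30 itself spread widely, and the log2 fold change of -3.24 ± 0.86 was not called (adjusted p = 0.0541, limma).

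Other members with large fold changes in R30 were not called either. MYB97 (GmaAffx.34720.3.S1_at) gave 5.67, 0.299 and 18.0 in R30, against 84.0, 32.5 and 19.0 in C30 (log2 fold change -2.81 ± 0.91, adjusted p = 0.128, limma), with 1 R30 array above the floor. MYB75 (Gma.17502.1.S1_at) gave 81.3, 91.2 and 121 in R30, against 118, 372 and 435 in C30 (-1.46 ± 0.67, adjusted p = 0.324). MYB180 (Gma.16977.1.A1_x_at) gave 177, 197 and 375 in R30, against 289, 428 and 730 in C30 (-0.93 ± 0.36, adjusted p = 0.230). Of these 3, MYB97 alone had groups that did not overlap. MYB178 (GmaAffx.58141.1.S1_at) was higher on every R30 array, with 892, 676 and 453 in R30, against 397, 185 and 74.3 in C30 (1.87 ± 0.70, adjusted p = 0.207). Its other probe set, GmaAffx.58141.1.S1_x_at, gave 754, 574 and 388 in R30, against 359, 161 and 68.4 in C30. The pair tracked each other over all arrays at r = 0.995, but may share probes, which was not tested.

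At the end of bud removal no MYB probe set was called in D15 against C15, where limma called 0.226% of all tested probe sets, 0.146% higher and 0.0793% lower. At an unadjusted p under 0.05 there were 19 members, 24.1% of those tested, against 11.9% of all tested probe sets. Of the 79 members, 50 had a negative and 29 a positive log2 fold change, while 47.26% of all tested probe sets had a positive one. Probe sets of 1 gene are counted separately here. The members' median was -0.41, against -0.04 over all tested probe sets. With 1 array of D15 or C15 left out, the members' median ran from -0.61 to -0.27. The D15 and C15 arrays did not overlap for 13 members that were lower (7.58% of all probe sets were so) and for 8 that were higher (8.63%). D15 had the lowest mean signal of the 7 groups for 22 members (17.0% of all tested probe sets) and the highest for 3 (15.2%). The 13 probe sets stand for 10 genes and the 8 for 5 genes.

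Leaving out 1 untreated array changed the D15 calls. C15 replicate 1 had one of the lowest mean correlations with its own group, 0.862, and gave the C15 value nearest to D15 for MYB52, MYB93 and MYB133. Leaving it out widens these differences by itself, so the calls that follow are no further support for them. Leaving out any other array of D15 or C15 gave 0 called members. Without it 3.46% of all tested probe sets were called, and so were 5 members: MYB93 (log2 fold change -1.68), MYB52 (-1.71), MYB149 (-1.42) and MYB133 (-1.34, GmaAffx.91390.1.S1_s_at) were lower and MYB11 was higher, with adjusted p between 0.0127 and 0.0461 in limma. No fold is given for MYB11, which was then above the floor on no C15 array. With all arrays, MYB149 (GmaAffx.40917.1.S1_at) gave 140, 261 and 164 in D15, against 418, 439 and 545 in C15. The groups were apart, at -1.35 ± 0.33 (adjusted p = 0.0953). MYB11 (GmaAffx.1877.1.A1_at) gave 31.8, 41.7 and 22.3 in D15, against 25.1, 1.11 and 9.70 in C15, of which only the first was above the floor (1.93 ± 0.71, adjusted p = 0.258).

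The largest fitted fall in D15 belonged to MYB139, and it rests on 1 untreated array. GmaAffx.87757.1.S1_at gave 59.1, 55.3 and 227 in D15, against 116, 152 and 3065 in C15. The groups overlapped, and the log2 fold change of -2.05 ± 1.38 was not called (adjusted p = 0.594, limma). Its other probe sets gave -2.69 ± 1.68 and -2.02 ± 1.39 with the same high array. MYB68 gave 3.16, 25.3 and 11.2 in D15, against 22.0, 195 and 21.5 in C15 (-2.08 ± 0.86, adjusted p = 0.331). MYB97 was above the floor on no D15 array and on 2 of 3 C15 arrays, without a call. No fold is given for it, because C15 replicate 1 was not above its floor either. MYB60, on GmaAffx.84566.1.S1_x_at, was at the floor in both groups and is given no fold.

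Of the 79 tested members, 3 were higher on every treated array than on every untreated array of the same age at all 3 ages (2.6% of all tested probe sets were so), and 3 were lower (1.35%). The higher ones were MYB92 (Gma.11345.1.S1_at), MYB143 and MYB183, and the lower ones MYB52, MYB93 and MYB133 (GmaAffx.91390.1.S1_s_at). MYB183 (GmaAffx.91830.1.S1_at) is named because of this count, after its values were seen. It gave 54.7, 50.2 and 59.0 in D15, against 41.4, 36.4 and 34.2 in C15, and 50.9, 33.5 and 55.5 in R20, against 33.3, 30.2 and 22.9 in C20. In R30 it gave 68.9, 68.8 and 51.1, against 25.1, 48.5 and 49.1 in C30. Its log2 fold changes lay between 0.54 and 0.66, each with a standard error of 0.39, and none was called.

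Whether the response to treatment differed between the end of bud removal and regrowth was tested as an interaction. No member was called for the change from D15 to R20 or for the change from D15 to R30, and neither was any other of the 32776 probe sets (0% called) in limma. At an unadjusted p under 0.05 there were 2 members for R20 (2.53%, against 11.3% of all) and 3 for R30 (3.80%, against 2.24% of all). For MYB48 (Gma.4207.3.S1_a_at) the log2 fold change in R20 minus that in D15 was -1.96 ± 0.56 (adjusted p = 0.327). For MYB121 the log2 fold change in R30 minus that in D15 was 2.81 ± 1.02 (adjusted p = 1). The standard errors of these differences, up to 2.38 among the named members, set what could be seen: a member called in R20 and not in D15 is not shown to differ between them.

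Of the members tied to isoflavonoid synthesis, MYB133 alone was called in a same-age comparison with all arrays; differences between these members were not tested. MYB176 (Gma.593.1.S1_x_at), the activator of a chalcone synthase gene, gave 2556, 1826 and 1864 in R20, against 1273, 870 and 1922 in C20. The groups overlapped, and the log2 fold change of 0.68 ± 0.27 was not called (adjusted p = 0.0873, limma). It gave 1647, 1680 and 2242 in D15, against 1867, 1556 and 2049 in C15, with a log2 fold change of 0.02 ± 0.27. In R30 it gave 2397, 2159 and 2580, against 1388, 1790 and 1767 in C30. Here the groups were apart, at 0.53 ± 0.27 (adjusted p = 0.384).

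MYB29 (GmaAffx.57525.1.S1_at) gave 50.0, 29.5 and 36.5 in D15, against 11.04, 28.9 and 5.81 in C15. All D15 values were higher, though only 1 C15 array was above the floor (log2 fold change 1.52 ± 0.85, adjusted p = 0.506, limma). It gave 58.7, 98.4 and 25.7 in R20, against 40.1, 29.7 and 16.4 in C20, and 35.6, 41.0 and 43.0 in R30, against 52.4, 8.84 and 1.11 in C30. Both later pairs overlapped. C30 replicate 1 was the highest of the 6 arrays at 60 days, and without it both MYB29 probe sets were called higher in R30 (adjusted p = 0.0262 and 0.0466, limma), as 3.45% of all tested probe sets were called in either direction. No fold is given there, because both probe sets were above the floor on neither remaining C30 array. With all arrays the log2 fold changes were 1.98 ± 0.85 and 1.78 ± 0.80 and neither was called. MYB12A, a relative of a MYB gene tied to isoflavones, was not called on any of its 3 tested probe sets, whose log2 fold changes at the 3 ages lay between -0.09 and 1.003. Gma.163.1.S1_at, for example, gave 51.6, 80.9 and 82.5 in R30, against 68.4, 82.4 and 48.8 in C30. Gma.163.1.S1_x_at was higher on every R20 array, with 37.0, 41.2 and 43.4, against 33.4, 23.2 and 27.6 in C20. The other tested MYB12A probe sets overlapped between R20 and C20. MYB133 fell in R20, as described above. In R30 its probe set GmaAffx.85162.1.S1_at gave 77.2, 85.0 and 92.4, against 125, 83.2 and 57.2 in C30, a log2 fold change of 0.01 ± 0.44. GmaAffx.91390.1.S1_s_at gave 149, 146 and 183 in R30, against 223, 192 and 212 in C30, lower on every array but not called. Gma.13966.1.S1_at gave 131, 274 and 398 in R30, against 302, 504 and 478 in C30, with overlap and no call.

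**Figure D3:**
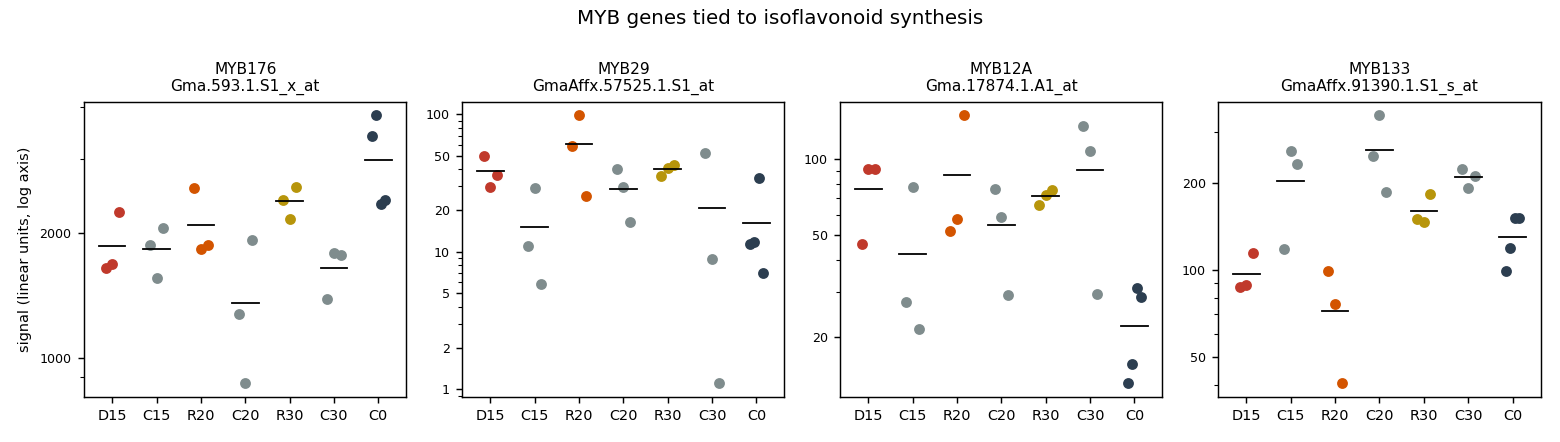
Signal of 4 MYB probe sets of genes tied to isoflavonoid synthesis on every array (points, log axis) with the group mean (line). The plotted probe set of MYB133 is lower in R20 than in C20 on every array, while the plotted probe sets of MYB176, MYB29 and MYB12A overlap between those groups.

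The enzyme genes of the pathway were set beside these regulators. Of 32 flavonoid and isoflavonoid enzyme genes with a symbol on the array, 29 were tested, each by its tested probe set of highest mean signal. The shares and medians of all tested probe sets given beside them include dimmer probe sets, so they are not a matched background. At each age none was called lower. In D15 1 was called higher (3.45% of the 29, against 0.146% of all tested probe sets), in R20 5 (17.2%, against 6.64%) and in R30 3 (10.3%, against 1.82%). Their median log2 fold changes were 1.13, 0.99 and 1.19, against medians of -0.04, -0.27 and 0.05 over all tested probe sets. CHI1B1, a chalcone isomerase, was higher at all 3 ages, by 2.55 ± 0.52 in D15 (adjusted p = 0.0478, limma), 1.59 ± 0.52 in R20 (adjusted p = 0.0400) and 2.83 ± 0.52 in R30 (adjusted p = 0.00543). CHS8, the chalcone synthase known as the target of MYB176, averaged 5182 ± 1012 in R20 and 988 ± 544 in C20 (SD, n = 3 each), a log2 fold change of 2.51 ± 0.75 (adjusted p = 0.0282). The isoflavone reductase IFR averaged 693 ± 394 in R20 and 40.4 ± 30.6 in C20 (4.23 ± 1.35, adjusted p = 0.0373). In R30, CHI2-A, another chalcone isomerase, rose by 3.84 ± 0.63 (adjusted p = 0.00207) and the chalcone reductase CHR5 by 2.85 ± 0.68 (adjusted p = 0.0326). In untreated leaves, C30 against C0, none of the 29 was called and their median was -0.08.

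Of MYB76, MYB92, MYB118, MYB177 and MYB84, the members known for stress tolerance in other plants or in soybean, MYB92 alone was called in a comparison of treated with untreated leaves. MYB76 (GmaAffx.83209.1.S1_at) gave 50.5, 52.0 and 16.9 in R20, against 46.7, 51.7 and 31.9 in C20, with overlap at every age and log2 fold changes between -0.72 and -0.25. MYB118 (GmaAffx.20956.1.S1_at) gave 32.5, 20.0 and 17.9 in R20, against 15.5, 22.8 and 34.5 in C20, and was above the floor on 1 of 3 arrays in each of D15, C15, R30 and C30. Its log2 fold changes lay between -0.58 and -0.02. MYB177 was measured by a pair of dim probe sets, with Gma.8300.1.A1_at above the floor on no D15 or R30 array. Both MYB84 probe sets were too dim to be tested. At these levels differences in MYB118, MYB177 and MYB84 could not be measured well, and no conclusion on their change is drawn from these values.

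In untreated leaves, 7 members were called between the ages of 60 and 30 days: MYB52 and MYB68 were higher in C30 than in C0, and MYB64, MYB121, MYB127, MYB143 and MYB186 were lower. They are 8.86% of the tested members, against 4.35% of all tested probe sets, with 2 higher (1.2% of all) and 5 lower (3.15% of all). The C30 and C0 arrays did not overlap for 5 members that were higher (5.28% of all) and for 9 that were lower (7.14%). The members' median log2 fold change was -0.16, against 0.05 over all. The treated arrays enter these calls through the spread, which is estimated over all 22 arrays. With only the 7 arrays of C30 and C0 fitted in limma, 0 members were called (0.22% of all tested probe sets), and 16 (20.3%, against 14.1% of all) had an unadjusted p under 0.05. MYB68 (GmaAffx.60367.1.S1_at) gave 625, 137 and 73.8 in C30, against 3.52, 18.6, 8.12 and 20.2 in C0, where 2 of 4 arrays were above the floor. The log2 fold change was 4.02 ± 0.81 (adjusted p = 0.0093, limma), and the groups were apart by a wide margin.

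MYB127 (GmaAffx.84604.1.S1_at) gave 9.49, 28.3 and 35.0 in C30, against 251, 284, 524 and 133 in C0, a log2 fold change of -3.58 ± 0.74 (adjusted p = 0.0109, limma). MYB64 (GmaAffx.6306.1.S1_at) gave 14.1, 23.8 and 24.5 in C30, against 145, 149, 107 and 51.6 in C0 (-2.31 ± 0.54, adjusted p = 0.0212). MYB186 (GmaAffx.6637.1.S1_at) gave 13.8, 11.2 and 16.5 in C30, of which 1 was above the floor, against 89.0, 159, 47.7 and 61.3 in C0 (-2.47 ± 0.66, adjusted p = 0.0377). In all 3 genes every C30 value was below every C0 value. Over the 4 ages of untreated leaves the means of MYB127 were 298 ± 164 in C0 (SD, n = 4), and 151 ± 183 in C15, 42.9 ± 24.3 in C20 and 24.3 ± 13.2 in C30 (SD, n = 3 each). C15 spread across most of that range, from 15.9 to 359.

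MYB52, MYB121 and MYB143 were called here and also in a same-age comparison. The comparisons of R30 with C30 and of C30 with C0 use the same C30 arrays with opposite sign, so nothing is read from their opposite directions. MYB52 gave 986, 580 and 412 in C30, against 124, 202, 261 and 262 in C0 (log2 fold change 1.60 ± 0.40, adjusted p = 0.0284, limma). MYB121 gave 12.9, 54.6 and 99.5 in C30, against 432, 544, 488 and 288 in C0 (-3.32 ± 0.68, adjusted p = 0.0103). MYB143 gave 77.6, 83.7 and 93.1 in C30, against 237, 219, 154 and 137 in C0 (-1.09 ± 0.30, adjusted p = 0.0450). MYB52 averaged 185 ± 17.7 in R30 (SD, n = 3) and 212 ± 65.5 in C0 (SD, n = 4), and MYB143 averaged 195 ± 19.6 in R30 and 187 ± 48.7 in C0. MYB121 averaged 603 ± 183 in R30 and 438 ± 110 in C0. R30 was not tested against C0.

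**Figure D4:**
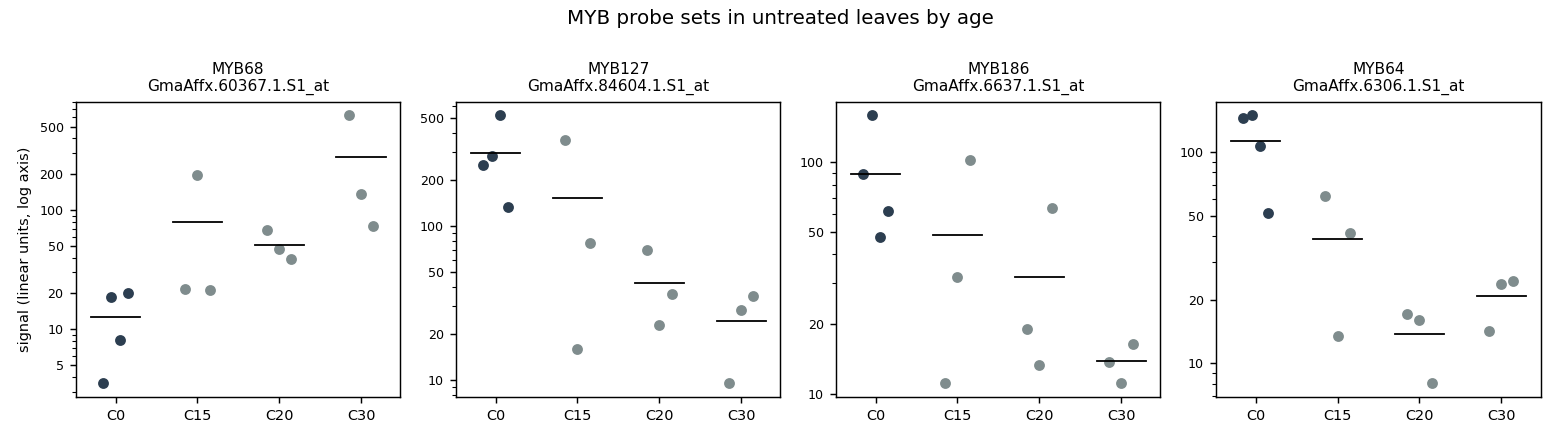
Signal of 4 MYB probe sets in untreated leaves on every array (points, log axis) with the group mean (line), by age from 30 days (C0) to 60 days (C30). MYB68 is higher, and MYB127, MYB186 and MYB64 are lower, on every C30 array than on every C0 array.

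The calls between untreated ages depended on single arrays. Without C30 replicate 1, MYB68 alone was called (2.66% of all tested probe sets), without C0 replicate 1 or C0 replicate 2 there were 3 calls each (1.07% and 1.17% of all), and without C30 replicate 2 there were 4 (2.07%). Without C0 replicate 4, 13 members were called, including all 7, and 9.22% of all tested probe sets. MYB176 was among those added, lower in C30 by a log2 fold change of -0.93 (adjusted p = 0.0375, limma). With all arrays MYB176 gave 1388, 1790 and 1767 in C30, against 3403, 3826, 2338 and 2402 in C0, with no overlap (-0.84 ± 0.25, adjusted p = 0.0693).

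The probe sets of the family spread more within groups than the average probe set did. The median within-group SD on the log2 scale was 0.81 over the 79 tested members and 0.66 over all tested probe sets. Among probe sets above the floor on all arrays it was 0.50 for the 41 members and 0.49 for all, a smaller difference. A few of these brighter members differed greatly between arrays of 1 group, and MYB138 and MYB145 are named here after their values were seen. MYB139 (GmaAffx.87757.1.S1_at) ranged from 26.8 to 3307 over the 22 arrays, with a within-group SD of 1.91 that exceeded 99.2% of all tested probe sets. Its highest values were 3307 on C0 replicate 4 and 3065 on C15 replicate 3, while other arrays of those groups gave at most 282 and 152. MYB138 (GmaAffx.63449.1.S1_at) gave 65.1 on C0 replicate 3, against 685 to 810 on the other C0 arrays. MYB145 (GmaAffx.15471.1.S1_at) gave 1503 on C0 replicate 4 and 1519 on C15 replicate 3, the same arrays on which MYB139 was high. MYB73 (GmaAffx.92383.1.S1_at) gave 3850 on C30 replicate 1, against 227 and 51.9 on the other C30 arrays. MYB112 (Gma.4164.1.S1_at), which has a high signal throughout, had a within-group SD of 0.69, near the middle of all tested probe sets (percentile 53.1). It gave 962, 911 and 3424 in R20, the last on R20 replicate 3, against 777, 700 and 1484 in C20.

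**Figure D5:**
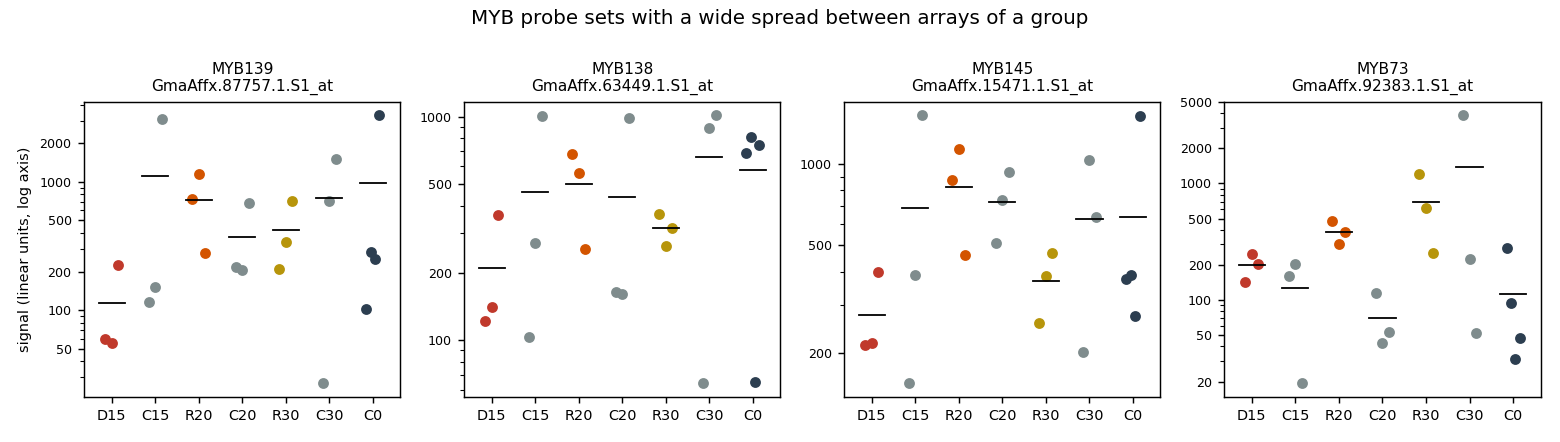
Signal of 4 MYB probe sets with a wide spread on every array (points, log axis) with the group mean (line). MYB139 and MYB145 are high on C0 replicate 4 and C15 replicate 3, MYB138 is low on C0 replicate 3, and MYB73 reaches 3850 on C30 replicate 1.

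Where a gene had several tested probe sets, these formed 30 pairs whose correlation over the 22 arrays, which share preparation and scaling, had a median of r = 0.747. In 13 pairs r was over 0.8, among them MYB178 (0.995), the 3 pairs of MYB139 (0.946 to 0.973), MYB73 (0.932), MYB92 (0.910) and MYB48 (0.892). Pairs whose names differ only in the ending _at or _x_at, such as that of MYB178, may share probes, which was not tested. The lowest r was 0.038, between 2 probe sets of MYB60. For MYB57, the probe sets GmaAffx.40316.1.S1_at and GmaAffx.91778.1.S1_s_at correlated at r = 0.698 and differed at 60 days: the first gave 56.2, 55.5 and 56.5 in R30, against 51.4, 23.0 and 22.6 in C30 (log2 fold change 0.88 ± 0.47), and the other 63.3, 46.6 and 39.6 in R30, against 48.4, 67.4 and 73.2 in C30 (-0.34 ± 0.65). Neither difference was called. The remaining MYB57 probe set, Gma.11276.1.S1_at, correlated with these at r = 0.308 and 0.659. It gave 122, 139 and 179 in R30, against 124, 253 and 347 in C30, with overlap.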

How the data were processed

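Total RNA of 22 leaf samples was biotin-labelled and put on Affymetrix Soybean GeneChips, as the labels' protocols state. In the deposited table every probe set has 1 linear intensity on each array; 2% trimmed means of 124.978 to 124.986 show that the authors' values share a common scale. The summarising software and the genome build are not given in the sources used here; coordinates are therefore left out. The probe annotation named members, and 93 of the 102 have a gene identifier in the RefSeq table. No sequences of the members were used here.

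Signal was log2-transformed after adding 1 and fitted with limma 3.58.1 in R 4.3.3 (lmFit, contrasts.fit, eBayes with a variance trend), with 1 coefficient per group over all 22 arrays. Soybean probe sets above the floor on at least 3 arrays were tested, and p-values, two-sided, were adjusted per comparison over all 32776 of them; the code was tested on simulated data. The pseudocount of 1 lies far below the floor, so scatter under the floor can enlarge as well as reduce the fold changes of dim probe sets. Where a group had no array above the floor, the text gives no fold change for that comparison. Array number (3 or 4 per group) limits precision. Whether replicates came from separate plants is not stated, so a p-value reflects only how these samples vary, which may be technical. No 2 arrays correlated above 0.956, and each was counted as a sample of its own.

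Named members are those called in any comparison, the 5 highest and 5 lowest fold changes in each same-age comparison, the 3 of highest mean signal, and those known for isoflavonoid control or stress tolerance; exceptions are marked in the text. Members, lists and tests were chosen with earlier results of these data known. Replicate numbers did not pair the samples: deviations of same-numbered samples correlated at -0.158 to 0.272. Alternatives changed the scaling, pseudocount, filter, variance prior, arrays in the fit, replicate block and unit counted.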

Additional observations from a re-analysis of the deposited data

Results flagged for a closer look

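In C0, the only group large enough, 42 named probe sets were checked for a single array far from the other 3. The probe sets marked are those given here. The check used linear signal and was not made on the log2 scale of the fold changes. Chance alone marks about 1 in 20 only where values are normally distributed, which was not tested for linear signal. The number marked is therefore not compared with chance. On C0 replicate 4 the 3 probe sets of MYB139 were high: GmaAffx.87757.1.S1_at gave 3307, against 102 to 282 on the other C0 arrays. GmaAffx.87757.3.S1_at gave 1613, against 46.8 to 190, and GmaAffx.87757.3.S1_x_at gave 1859, against 87.3 to 277. These 3 probe sets measure 1 gene and are not separate observations. The same array gave 457 for MYB75 (Gma.17502.1.S1_at), against 60.6 to 91.6 on the others. C0 replicate 3 gave 21.7 for MYB29 (GmaAffx.57525.1.S1_x_at), against 8.98 to 9.78, values near the floor.

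MYB57 (GmaAffx.40316.1.S1_at) was lower on every R20 array than on every C20 array, with a log2 fold change of -1.38, and higher on every R30 array than on every C30 array, with a log2 fold change of 0.88. The difference between these effects was not tested.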

How the results depend on the processing

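No call of a MYB probe set turned to the opposite direction under the alternatives tried; the enzyme genes were fitted with the reported settings only. In R20 against C20, MYB48 (both probe sets), MYB52, MYB93 and MYB92 (Gma.11345.1.S1_at) kept their calls under all 15 alternatives, with adjusted p up to 0.0424, while fitting the 6 arrays of that comparison alone left 8 members called, of which 6 were among the 14. Counting genes by their probe set of highest mean gave 8 in R20. Fitting only the arrays compared gave 1 in R30 and 0 in C30 against C0, and dropping the variance trend gave 1 in R30. With the replicate number as a block, which the pairing check does not bear out, 2 members were called in D15, 15 in R20, 5 in R30 and 12 in C30 against C0, beside 1%, 21.5%, 3.33% and 10.7% of all tested probe sets. Leaving out C0 replicate 4, C15 replicate 1 and R20 replicate 3 together gave 12 in D15, 12 in R20, 8 in R30 and 20 in C30 against C0, beside 10.2%, 15.1%, 5.93% and 15.5% of all. These arrays were chosen as of doubtful quality, without a fixed rule. C30 replicate 1 was kept, though its mean correlation with its group (0.846) was below those of C15 replicate 1 (0.862) and C0 replicate 4 (0.870). Leaving out 1 array of the groups compared gave 0 to 5 calls in D15 (0.00305% to 3.46% of all), 8 to 13 in R20 (4.74% to 19.4%), 0 to 4 in R30 (0.58% to 3.45%) and 1 to 13 in C30 against C0 (1.07% to 9.22%), and 0 in both interactions. Arrays of other groups enter the spread; leaving out 1 of those, an alternative chosen after seeing the data, gave 0 to 1 in D15, 11 to 16 in R20, 1 to 3 in R30 and 6 to 8 in C30 against C0. The lowest R20 count came without C20 replicate 2, and the lowest R30 count without R30 replicate 2. Fitting fewer arrays leaves fewer degrees of freedom; other causes were not tested. Quantile normalization, median centring, the pseudocount of 16 and both filters left each count within 1.5 times the reported value. Of the members called in C30 against C0, MYB68 kept its call under 15 of 16 alternatives and MYB143 under 7. Members near the floor limit what their fold changes can show.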
